A study of Homo sapiens with 9 samples.

Results

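The genes described here are the RNF and TRIM genes, families named after the RING finger and the tripartite motif, that were expressed in A375R human melanoma cells. A member was any protein-coding gene whose symbol is RNF or TRIM followed by a number and at most 1 letter, with a mean normalized count of at least 10 over the 9 libraries. RNF4, the ligase that the compound was built to bind, was left out. Of 62710 genes in the deposited table, 156 carried such a symbol, and 106 of these passed the minimum: 65 of 83 RNF genes and 41 of 73 TRIM genes. Of the 50 others, 23 were listed at 0 in every library. The members closest above the minimum were RNF31 at a mean of 11.57, TRIM67 at 11.93 and RNF225 at 11.94, and the genes closest below it were RNF32 at 6.81, TRIM73 at 5.8 and TRIM63 at 4.78.

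A375R is a line of A375 melanoma cells that resists the BRAF inhibitor PLX4032 and is kept in that drug, so all 3 groups share this background. Cells received the solvent DMSO (labelled WT, with no dose in the labels and a time of 2 h in the column names of 2 of the 3 libraries), 10 µM VHL-r (labelled VHL), which is the VHL-binding moiety on its own, or 10 µM R4VPL3-1 (labelled L3linker_1), the full PROTAC-like molecule that joins the VHL binder through a linker to a binder of RNF4, each compound for 2 h. The study states that the 3 libraries of each treatment came from independent biological repeats. Poly(A) RNA was sequenced, and the 9 libraries held between 26435568 and 32085626 assigned reads, of which the members took 0.567% to 0.591%.

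A ubiquitin ligase brings a ubiquitin-loaded conjugating enzyme to a substrate. In most RNF and TRIM proteins a zinc-binding RING finger does this, and RBR ligases pass the ubiquitin through a cysteine of their own. TRIM proteins add B-boxes and a coiled coil, and their further domains (such as SPRY, NHL, COS or bromodomain) set what they bind. Several sense viruses or relay interferon signals, others act on chromatin, microtubules or membrane proteins. The name is not proof of activity, since TRIM14, TRIM16, TRIM44 and TRIM66 lack a RING finger. RNF7 works as a subunit of cullin ligase complexes.

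Promoter sequences from RefSeq (GRCh38.p14) were found for 84 of the 106 members. The 5 shown are those of TRIM25 and RNF145 because these genes differed between the compounds, and of RNF146, TRIM36 and TRIM47 because they are among the members with the largest called changes. Each runs 5′ to 3′ on the gene's own strand over up to 250 bases before its start, less the last bases where GENCODE 44 places a UTR of another transcript of the gene. TRIM25 (chr17:56914081-56914299), RNF145 (chr5:159209554-159209803), TRIM36 (chr5:115169910-115170158) and TRIM47 (chr17:75878582-75878831) are on the minus strand and RNF146 (chr6:127266614-127266848) is on the plus strand. Capitals mark the E-box CACGTG, a motif of basic helix-loop-helix factors.
TRIM25: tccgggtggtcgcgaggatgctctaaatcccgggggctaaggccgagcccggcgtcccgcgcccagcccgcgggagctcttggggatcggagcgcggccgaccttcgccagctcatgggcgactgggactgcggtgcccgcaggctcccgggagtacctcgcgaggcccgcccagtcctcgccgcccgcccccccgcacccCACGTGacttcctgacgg
RNF145: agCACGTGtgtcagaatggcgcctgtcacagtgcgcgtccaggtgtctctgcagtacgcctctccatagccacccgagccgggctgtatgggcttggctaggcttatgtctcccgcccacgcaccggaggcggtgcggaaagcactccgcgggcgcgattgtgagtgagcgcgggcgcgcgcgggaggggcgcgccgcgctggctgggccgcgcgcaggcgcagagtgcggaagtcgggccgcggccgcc
RNF146: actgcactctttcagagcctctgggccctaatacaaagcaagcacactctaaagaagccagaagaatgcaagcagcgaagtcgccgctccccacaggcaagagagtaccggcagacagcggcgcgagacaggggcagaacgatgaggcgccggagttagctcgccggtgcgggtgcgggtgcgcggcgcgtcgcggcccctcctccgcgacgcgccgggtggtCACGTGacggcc
TRIM36: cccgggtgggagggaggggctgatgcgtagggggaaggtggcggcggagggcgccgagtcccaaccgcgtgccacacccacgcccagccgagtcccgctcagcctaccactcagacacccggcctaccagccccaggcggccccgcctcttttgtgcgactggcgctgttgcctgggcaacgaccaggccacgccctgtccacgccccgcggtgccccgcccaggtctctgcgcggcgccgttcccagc
TRIM47: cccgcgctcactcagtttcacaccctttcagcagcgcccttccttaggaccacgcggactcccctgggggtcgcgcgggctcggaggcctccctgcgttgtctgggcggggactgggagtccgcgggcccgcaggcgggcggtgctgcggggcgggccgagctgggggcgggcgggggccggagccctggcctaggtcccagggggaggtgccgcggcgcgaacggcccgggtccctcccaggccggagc
The E-box stands once in the windows of TRIM25, RNF145 and RNF146 and is not among the letters of those of TRIM36 and TRIM47. With all listed starts of a gene counted, 9 of 84 members (10.7%) held it on either strand, against 10.9% of 10947 tested genes. The interferon-response element (GAAA, any 2 bases, GAAA) was in 7 of 84 members (8.3%) against 3.4% of the tested genes, among them TRIM5, TRIM14, TRIM26 and TRIM69. The AP-1 motif TGANTCA was in 7.1% of members and 6.5% of tested genes, and the antioxidant motif TGACNNNGC in 13.1% and 15.9%. The CCAAT box was in 45.2% and 41.6%, and the GC box GGGCGG in 78.6% and 73.4%. The cyclic AMP response element was in 1.2% and 3.4%, and the heat shock element in no member and 0.4% of tested genes. Apart from the E-box, the GC box is the only motif of these that stands in some of the 5 windows shown, where it is left in lower case. A match is a run of letters and not a measured binding site.

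Levels differed widely among members. Per kilobase of exon, TRIM28, the corepressor of KRAB zinc-finger proteins, had the highest mean over the 9 libraries, with 5560 normalized counts per kb. It was followed by RNF167 at 1620 (an endosomal and lysosomal membrane ligase), RNF145 at 1510, RNF40 at 1170 and RNF20 at 996 (together the ligase of histone H2B). The lowest were RNF165 at 1.85, RNF31 at 1.72 and TRIM67 at 1.27 counts per kb. RNF31 is the catalytic subunit of the linear ubiquitin ligase, and 53.3% of its exon bases lie under another gene on the same strand, where htseq-count leaves reads unassigned, so its level here is a lower limit. The same holds in part for TRIM39 (29.5%) and TRIM16 (23.5%).

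**Figure D1:**
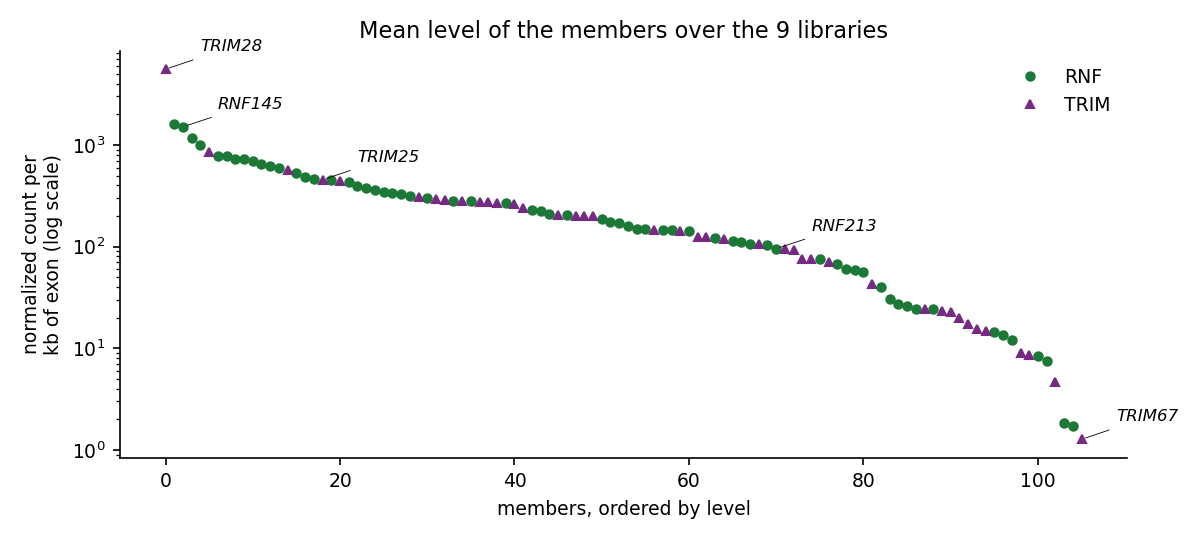
Mean normalized count per kilobase of exon (log scale) of each of the 106 members over the 9 libraries, ordered by level, with RNF genes as circles and TRIM genes as triangles. TRIM28 stands highest at 5560 and TRIM67 lowest at 1.27 counts per kb.

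The cells were checked against their label. Of 8 markers of the melanocyte lineage, 6 had a mean of at least 10, among them SOX10, MITF and DCT, while MLANA was at 0 in all 9 libraries and TYR at 2.14 normalized counts or less. All 5 markers of poorly differentiated melanoma had a mean of at least 10. Their sum, mostly AXL, ranged from 13055 to 15006.6 in DMSO, 11529.8 to 12588 in VHL-r and 11356.7 to 12441.2 in R4VPL3-1. AXL fell by 0.17 on the log2 scale with either compound (limma adjusted p = 0.0374 in VHL-r and 0.0307 in R4VPL3-1) and WNT5A by 0.73 and 0.96 (7.11e-08 and 7.22e-10). In R4VPL3-1 alone NGFR was called lower (-0.31, 0.00447) and EGFR higher (0.31, 0.0145), with no call between the compounds. SOX10 fell with both compounds (17550 ± 482 in DMSO, 10200 ± 1040 in VHL-r and 8405 ± 447 in R4VPL3-1, mean ± SD, n = 3). MITF also fell, with log2 fold changes of -0.71 in VHL-r and -0.77 in R4VPL3-1. The other 4 expressed markers of the lineage, PMEL, DCT, S100A1 and S100B, were not called in any comparison. The summed melanocyte markers, mostly SOX10, ranged from 22877.5 to 24656.9 in DMSO, 13655.7 to 17016.4 in VHL-r and 12181.6 to 14589.9 in R4VPL3-1. The summed keratinocyte markers, mostly KRT14, ranged from 351.2 to 394.1, 303.2 to 320.6 and 251.2 to 300.5. The summed leukocyte markers reached at most 11.8 and the endothelial markers at most 13.3 in any library. The part of these marker shifts in the members' changes was not tested, and in bulk RNA fewer cells of a kind cannot be told apart from less RNA per cell. RNF4 itself had 406.9 ± 51.3, 429.5 ± 20.2 and 406.9 ± 32.6 normalized counts in DMSO, VHL-r and R4VPL3-1, and VHL had 1702 ± 152, 1761 ± 31.8 and 1731 ± 72.5. Neither gene's RNA was called in any of the 3 comparisons.

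The first comparison asks what the full molecule did to the members within 2 h. In R4VPL3-1 against DMSO, 23 of the 106 members were higher and 17 were lower in limma (adjusted p ≤ 0.05 by Benjamini-Hochberg, fitted on log2 of the normalized count plus 1 over all 15230 genes with a mean of at least 10). That is 37.7% of members called, against 24.9% of all genes tested. The background was 13.1% for higher and 11.8% for lower calls. The groups of 3 libraries did not overlap for 54 members, against 38.0% of all genes, with 29 higher (19.1% of all genes) and 25 lower (18.9%). Members were also measured more tightly than genes in general, since the median width on either side of the 95% interval was 0.139 on the log2 scale against 0.168. Its part in the higher share of calls was not tested. The median log2 fold change over the members was 0.00, and that over all genes was -0.01.

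The second comparison asks the same of the VHL-binding moiety alone. In VHL-r against DMSO, 18 members were higher and 17 lower in limma, or 33.0% called against 19.8% of all genes tested (10.3% of all genes higher and 9.51% lower). The groups did not overlap for 49 members, against 34.3% of all genes, with 28 higher (17.1% of all genes) and 21 lower (17.2%). Both comparisons use the same 3 DMSO libraries, so their values are given side by side and the number of genes they share is not read as a result. Of TRIM members 46.3% were called in R4VPL3-1 and 39.0% in VHL-r, and of RNF members 32.3% and 29.2%, a difference that was not tested.

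The members with the largest rises were RNF225, RNF122, TRIM36, RNF165 and RNF146. RNF225 passed the minimum mean only through its treated libraries, as given below. TRIM36, a microtubule-binding COS-box protein, had 439.5, 390.59 and 430.98 normalized counts in the DMSO libraries, 937.67, 850.87 and 820.4 in VHL-r and 898.26, 857.6 and 856.47 in R4VPL3-1. All 6 treated libraries stood far above the 3 controls, and the treated groups overlapped each other. The gene rose 2.07-fold with either compound (limma adjusted p = 5.33e-10 in R4VPL3-1 and 1.06e-09 in VHL-r), on chromosome 5 between 115124762 and 115180546 of GRCh38.

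RNF146 binds poly(ADP-ribose) chains and marks proteins modified by tankyrases, such as axin, for degradation. It had 235.19, 305.98 and 284.95 normalized counts in DMSO, 392.28, 415.98 and 419.93 in VHL-r, and 485.54, 433.78 and 492.47 in R4VPL3-1. The 3 groups did not overlap and stood in that order. The log2 fold change was 0.58 ± 0.096 (SE) in VHL-r and 0.78 ± 0.096 in R4VPL3-1 (limma adjusted p = 1.51e-04 and 3.11e-06). Between the compounds the difference was 0.20, with a 95% interval from -0.002 to 0.40 and an adjusted p of 0.511.

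RNF122, a membrane-anchored ligase of the endoplasmic reticulum and Golgi, had 20.89, 28.53 and 18.25 normalized counts in DMSO, 49.03, 59.88 and 61.45 in VHL-r, and 70.03, 58.7 and 72.8 in R4VPL3-1. Every treated library was above every control, with log2 fold changes of 1.31 and 1.55 for VHL-r and R4VPL3-1 (limma adjusted p = 1.02e-04 and 1.01e-05). RNF225 rested on few reads: 2 in each DMSO library, 14, 12 and 26 in VHL-r, and 20, 18 and 11 in R4VPL3-1. Its mean normalized count was 1.94 in DMSO, 17.75 in VHL-r and 16.12 in R4VPL3-1. RNF225 thus passed the minimum mean over all libraries only through the treated groups, in which it was then called higher. It is counted among the higher members of each compound against DMSO. The ratio of its read totals to DMSO was 9.19 in VHL-r (95% interval 3.95 to 26.2) and 8.42 in R4VPL3-1 (3.6 to 24.1), exact intervals that cover counting error only. RNF165, a relative of RNF111 that acts in BMP signalling, had 13.62, 15.74 and 9.13 counts in DMSO, 24.02, 21.01 and 27.65 in VHL-r, and 24.28, 20.89 and 34.26 in R4VPL3-1. Its groups were apart at this low level, with log2 fold changes of 0.89 and 0.99 (limma adjusted p = 0.0352 and 0.0154). The R4VPL3-1 call of RNF165 was lost without DMSO replicate 3 (0.0716) or R4VPL3-1 replicate 3 (0.0807), and its VHL-r call with DMSO 1, DMSO 3 or any 1 VHL-r library left out (0.053 to 0.141).

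Smaller rises completed the list. TRIM68, a SPRY protein known as a coactivator of the androgen receptor, rose from 300.57, 336.48 and 304.22 in DMSO to 419.3, 441.19 and 407.64 in VHL-r and to 437.92, 424.82 and 433.59 in R4VPL3-1 (log2 fold changes 0.43 and 0.46, limma adjusted p = 5.17e-04 and 1.91e-04). TRIM52, which has no SPRY domain, had 345.97, 426.99 and 413.74 counts in DMSO, 534.38, 475.86 and 467.04 in VHL-r and 603.2, 552.17 and 507.46 in R4VPL3-1 (0.32 and 0.49, adjusted p = 0.017 and 4.14e-04). For both genes every treated library lay above every control. RNF227 had 148.92, 121.01 and 162.25 counts in DMSO, 188.13, 176.48 and 198.7 in VHL-r and 243.71, 191.02 and 176.65 in R4VPL3-1 (0.39 and 0.49, adjusted p = 0.0478 and 0.00964). The VHL-r call of TRIM52 was lost without DMSO replicate 1 (0.116) or VHL-r replicate 1 (0.0951). The R4VPL3-1 call of RNF227 was lost without DMSO replicate 2 (0.0739) or R4VPL3-1 replicate 1 (0.0808), and its VHL-r call without DMSO replicate 1 or 2, any 1 VHL-r library or R4VPL3-1 replicate 2 (0.0601 to 0.247).

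**Figure D2:**
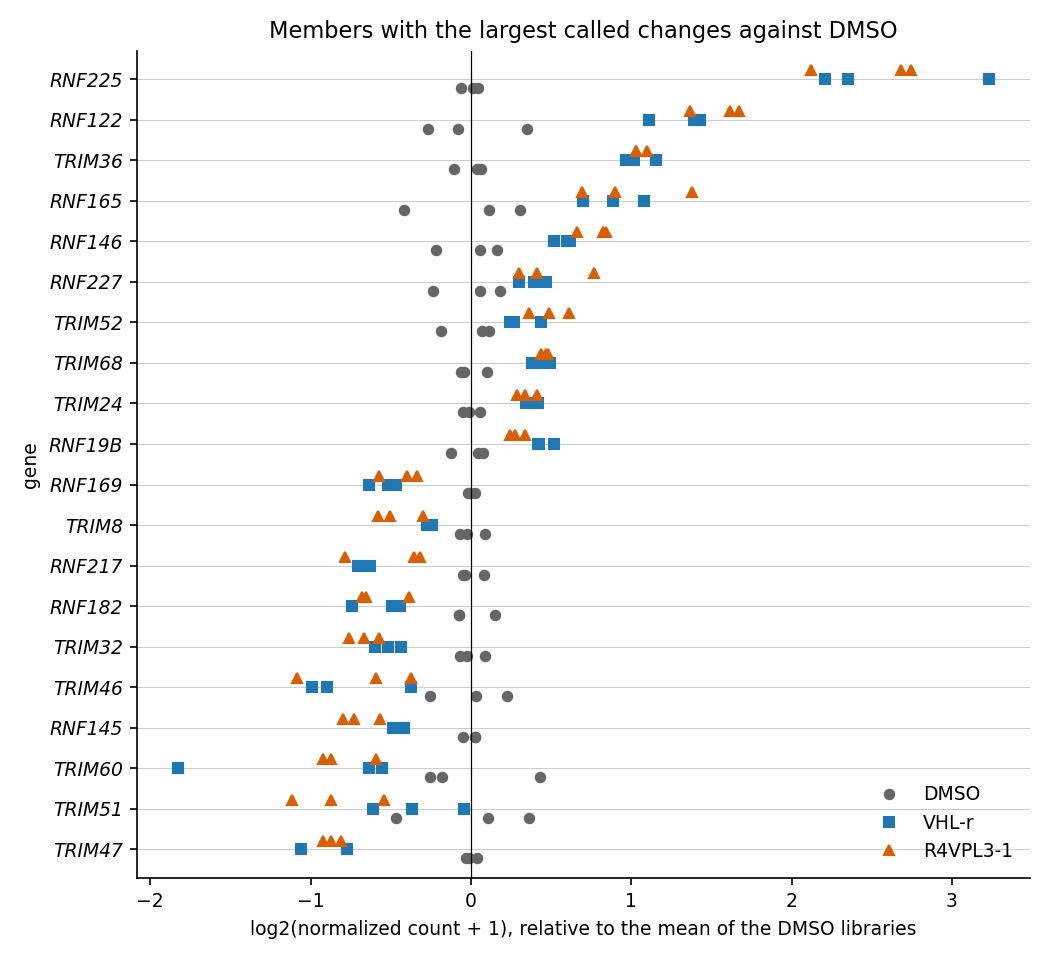
Each of the 9 libraries (DMSO circles, VHL-r squares, R4VPL3-1 triangles) for the 20 members with the largest called changes against DMSO, as log2(normalized count + 1) relative to the mean of the DMSO libraries, ordered by the R4VPL3-1 change. TRIM36 and TRIM47 show treated groups on top of each other and far from DMSO, while RNF145 shows 3 separate groups.

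TRIM47, a SPRY-domain ligase, had the largest fall of any called member in R4VPL3-1. It had 929.85, 887.43 and 899.47 normalized counts in DMSO, 434.31, 530.48 and 528.5 in VHL-r, and 493.95, 515.36 and 476.41 in R4VPL3-1. The controls lay together and well above all treated libraries, and the log2 fold change was -0.87 with either compound (limma adjusted p = 7.19e-08 in VHL-r and 4.07e-08 in R4VPL3-1). TRIM47 lies on chromosome 17 between 75874164 and 75878581, 1.8 kb from TRIM65 on the same strand, and TRIM65, a SPRY ligase of the MDA5 pathway, was not called in either compound.

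TRIM32, an NHL protein whose mutations cause a limb-girdle muscular dystrophy, had 1303.07, 1408.87 and 1261.49 counts in DMSO, 924.66, 979.03 and 875.71 in VHL-r, and 781.54, 890.43 and 833.98 in R4VPL3-1. It fell by 0.52 and 0.67 on the log2 scale (limma adjusted p = 7.97e-06 and 1.67e-07), with no treated library near the controls. TRIM8, which activates TAK1 in TNF and interleukin-1 signalling, had 2479.01, 2298.27 and 2229.92 counts in DMSO, 1930.38, 1973.81 and 1948.06 in VHL-r, and 1646.18, 1896.28 and 1560.91 in R4VPL3-1. Its log2 fold changes were -0.26 and -0.46 (adjusted p = 0.00511 and 1.04e-05). The 3 groups of TRIM8 did not overlap, but the compounds differed by -0.20 (95% interval -0.33 to -0.07) with an adjusted p of 0.139, and 0.0138 with R4VPL3-1 replicate 2 left out.

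RNF182, a membrane-anchored ligase best known from brain, had 593.87, 508.65 and 508.04 counts in DMSO, 380.27, 393.92 and 319.56 in VHL-r, and 333.35, 339.26 and 408.96 in R4VPL3-1 (log2 fold changes -0.56 and -0.58, limma adjusted p = 3.31e-04 and 1.89e-04). RNF217, an RBR ligase of the iron exporter ferroportin, fell from 489.45, 492.91 and 535.42 in DMSO to 310.22, 314.09 and 326.73 in VHL-r and 405.24, 293.5 and 395.04 in R4VPL3-1 (-0.67 and -0.49, adjusted p = 6.22e-05 and 0.0013). RNF169, which competes with 53BP1 at DNA breaks, had 1169.58, 1193.41 and 1159.07 counts in DMSO, 849.61, 821.46 and 756.9 in VHL-r and 930, 891.43 and 787.95 in R4VPL3-1 (-0.54 and -0.44, adjusted p = 6.26e-06 and 5.56e-05). For each of these 3 genes every control library was above every treated library.

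Further falls rested on low counts. TRIM46, a COS-box protein that bundles microtubules at the axon start, had 96.25, 78.71 and 110.53 normalized counts in DMSO, 47.03, 72.48 and 50.19 in VHL-r and 43.89, 72.63 and 62.09 in R4VPL3-1 (log2 fold changes -0.75 and -0.68, limma adjusted p = 0.0136 and 0.0201). TRIM51 had 37.23, 66.9 and 55.77 counts in DMSO, 40.03, 33.61 and 50.19 in VHL-r and 23.34, 27.86 and 35.33 in R4VPL3-1. It was called in R4VPL3-1 at -0.84 (adjusted p = 0.0146), with a value of -0.34 in VHL-r (0.389). TRIM60 had 31.78, 33.45 and 51.72 counts in DMSO, 10.01, 24.16 and 25.61 in VHL-r and 19.61, 24.87 and 20.34 in R4VPL3-1, and was called in VHL-r at -1.005 (adjusted p = 0.0283), with -0.80 in R4VPL3-1 (0.0729). Neither TRIM51 nor TRIM60 was called between the compounds. TRIM60 was called in R4VPL3-1 too with the replicate block (0.0391), edgeR (0.0462), the 6 libraries compared (0.0319) or VHL-r replicate 1 left out (0.0261). The R4VPL3-1 call of TRIM46 did not hold when DMSO 1, DMSO 3 or R4VPL3-1 1 was left out (0.0535 to 0.127), nor did its VHL-r call when DMSO 3, VHL-r 1 or VHL-r 3 was (0.05, just above the limit, to 0.0734). The call of TRIM51 was lost without DMSO replicate 2 (0.101) or R4VPL3-1 replicate 1 (0.0697), and that of TRIM60 without DMSO replicate 3 (0.139) or VHL-r replicate 1 (0.186).

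The third comparison sets the full molecule against its VHL-binding moiety at the same dose and time, 1 pair of compounds, with p-values adjusted over all 15230 genes. Of the 106 members, 0 were higher and 2 were lower in R4VPL3-1, or 1.89%, against 1.87% of all genes tested, 1.14% higher and 0.729% lower. At an unadjusted p under 0.05 there were 5 higher and 7 lower members. The share of all genes at that threshold was not counted, so these numbers are not read as a result. On the recovered reads, edgeR and DESeq2 each also called 0 higher and 2 lower members. Over all genes edgeR called 194 higher and 103 lower, and DESeq2 193 and 129. The groups did not overlap for 14 members, against 14.1% of all genes, with 6 higher (6.99% of all genes) and 8 lower (7.11%). The members' share of differences between the compounds was at the background.

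TRIM25, the SPRY ligase that ubiquitinates the viral RNA sensor RIG-I, was called in all 3 comparisons, and it was the sole member called in opposite directions against DMSO. It lies on chromosome 17 between 56836387 and 56914080, and its promoter is the first sequence printed above. Its normalized counts were 5792.52, 5598.11 and 5469.84 in DMSO, 6379.55, 6394.15 and 6017.29 in VHL-r, and 4783.55, 5209.29 and 5109.88 in R4VPL3-1. The controls lay between the treated groups without overlap, with VHL-r above and R4VPL3-1 below. The log2 fold change was 0.16 ± 0.045 (SE) in VHL-r (limma adjusted p = 0.018) and -0.16 ± 0.045 in R4VPL3-1 (0.0129), and R4VPL3-1 was 0.32 below VHL-r on the log2 scale (fold 0.804, adjusted p = 1.96e-04, 95% interval of the log2 difference -0.41 to -0.22). The call between the compounds was kept in every alternative fit run and at an adjusted p of at most 0.01. The R4VPL3-1 call against DMSO was lost without DMSO replicate 1 (0.0623) or R4VPL3-1 replicate 1 (0.0921), and the VHL-r call without DMSO replicate 2 (0.0629) or 3 (0.0757) or VHL-r replicate 1 (0.0626) or 2 (0.0935).

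RNF145 is a ligase of the endoplasmic reticulum membrane that works with INSIG proteins on HMG-CoA reductase, the controlled enzyme of cholesterol synthesis. It lies on chromosome 5 between 159157409 and 159210053. Its normalized counts were 8997.07, 8965.83 and 8508.98 in DMSO, 6295.49, 6594.79 and 6422.88 in VHL-r, and 5066.47, 5325.7 and 5966.35 in R4VPL3-1. The 3 groups stood apart in that order, R4VPL3-1 lowest. The log2 fold change was -0.46 ± 0.051 (SE) in VHL-r and -0.70 ± 0.051 in R4VPL3-1 (limma adjusted p = 1.43e-06 and 1.85e-09). Between the compounds it was -0.24 (fold 0.845, 95% interval -0.35 to -0.13, adjusted p = 0.0103), a call that was lost without VHL-r replicate 2 (0.0999), R4VPL3-1 replicate 1 (0.107) or R4VPL3-1 replicate 2 (0.0686). Both TRIM25 and RNF145 also stand in gene lists that the study made from these samples, so their appearance there is not independent evidence.

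**Figure D3:**
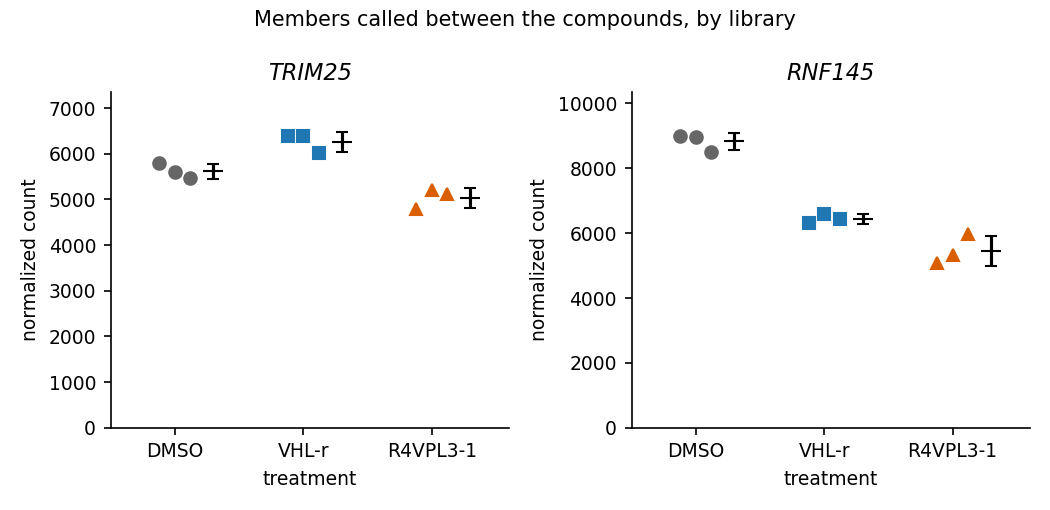
Normalized counts of TRIM25 and RNF145 in each of the 9 libraries by treatment, with the mean and SD of each group (n = 3) beside the points and axes from 0. TRIM25 is highest in VHL-r and lowest in R4VPL3-1 with DMSO between, and RNF145 falls in steps from DMSO to VHL-r to R4VPL3-1.

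For the other 104 members a p above the threshold does not show that the compounds act alike, so the intervals were counted. The whole 95% interval of the log2 difference lay inside a 1.2-fold change in either direction for 64 of them, inside 1.5-fold for 93 and inside 2-fold for 100. For TRIM36 the difference was 0.00 (-0.14 to 0.15) and for TRIM47 0.00 (-0.17 to 0.16). The 4 members whose intervals reached 2-fold were RNF144B, RNF31, TRIM51 and TRIM67, all with means under 50 counts. RNF144B, an RBR ligase of the p53 response, had 31.78, 30.5 and 37.52 counts in DMSO, 33.02, 28.36 and 34.82 in VHL-r, and 42.95, 51.73 and 54.6 in R4VPL3-1. All 3 R4VPL3-1 libraries were above the 6 others, with a difference between the compounds of 0.62 (0.18 to 1.05) and an adjusted p of 0.206.

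**Figure D4:**
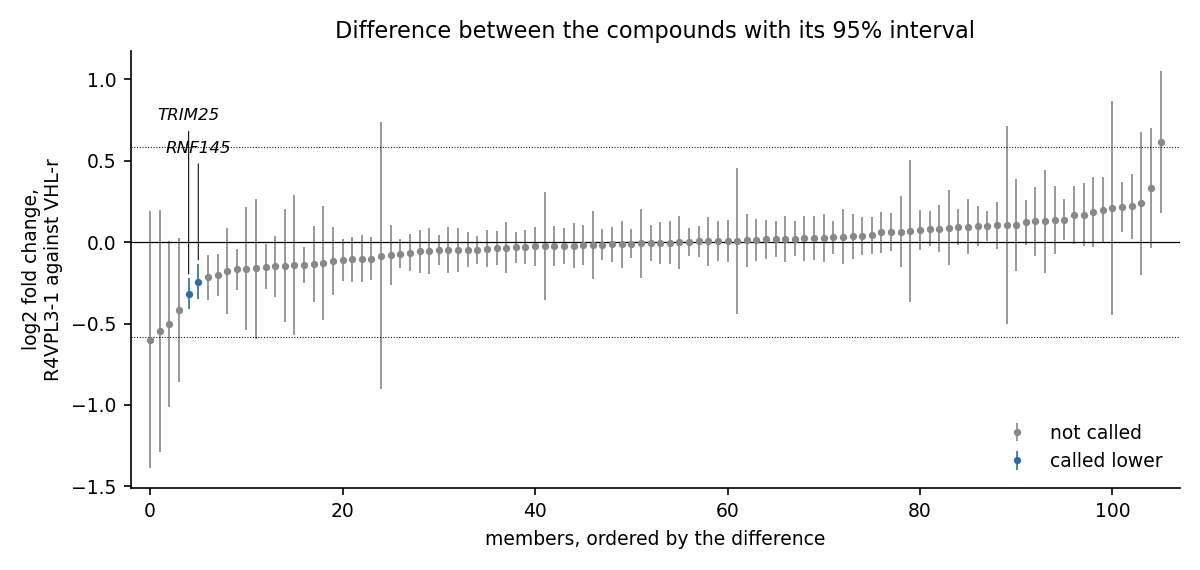
Log2 fold change of R4VPL3-1 against VHL-r with its 95% interval from limma for each of the 106 members, ordered by size, with dotted lines at a 1.5-fold change. TRIM25 and RNF145 are called lower, and the intervals of 93 of the 104 members not called stay between the dotted lines.

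By role, the RBR ligases had 1 higher and 2 lower of 8 in each compound against DMSO, or 37.5% called, against 24.9% of all genes in R4VPL3-1 and 19.8% in VHL-r. RNF19B, a membrane RBR ligase of cytotoxic lymphocytes, rose from 1109.65, 965.16 and 1084.03 counts in DMSO to 1412.01, 1404.46 and 1503.55 in VHL-r and 1247.48, 1327.2 and 1270.78 in R4VPL3-1 (log2 fold changes 0.45 and 0.29, limma adjusted p = 1.33e-05 and 0.00138). The VHL-r libraries stood above those of R4VPL3-1, but the compounds were not called apart. RNF144A, a ligase of the DNA-dependent protein kinase, fell from 1647 ± 92.5 in DMSO to 1338 ± 79.3 and 1350 ± 89.7 (-0.30 and -0.29, adjusted p = 0.00151 and 0.00173). RNF216, a ligase of Toll-like receptors, was at 2136 ± 69.6, 2021 ± 85.1 and 2154 ± 109 and RNF14 at 1849 ± 64.2, 1743 ± 52.8 and 1792 ± 122, without a call.

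None of the 6 protease-associated transmembrane ligases, which take up membrane proteins into the endosomal route, was called in any comparison by limma, edgeR or DESeq2. By limma, 24.9% of all genes were called in R4VPL3-1, 19.8% in VHL-r and 1.87% between the compounds. With 6 genes, the absence of calls is not read as a trait of this list. At an unadjusted p under 0.05, 1 was lower in R4VPL3-1 against DMSO and 0 were in the other comparisons, with the share of all genes not counted. Their levels in DMSO, VHL-r and R4VPL3-1 were 4551 ± 83.6, 4486 ± 67.9 and 4272 ± 122 for RNF167, 2048 ± 15, 2057 ± 34.4 and 2009 ± 117 for RNF130, and 1434 ± 44.9, 1416 ± 59 and 1416 ± 137 for RNF13. RNF150 was at 849.9 ± 87.3, 823.7 ± 44.1 and 804.5 ± 49.1. The other 15 membrane-anchored RNF ligases had 3 higher and 2 lower in each compound against DMSO (33.3% called, against the same 24.9% and 19.8% of all genes): RNF225, RNF122 and RNF24 rose, and RNF145 and RNF182 fell. RNF24, a small Golgi-associated ligase, went from 934.9 ± 42.3 to 1203 ± 33.8 and 1189 ± 54.7 (log2 fold changes 0.36 and 0.35, limma adjusted p = 1.15e-04 and 1.48e-04). RNF139, like RNF145 a sterol-regulated ligase, was at 1031 ± 21.8, 1142 ± 114 and 1097 ± 41.4, and RNF26, which regulates STING, at 2087 ± 59.9, 2115 ± 59.5 and 1919 ± 114, neither of them called.

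Of the 9 chromatin and DNA repair ligases, 0 were higher and 1 lower in R4VPL3-1 by limma (11.1% called, against 24.9% of all genes) and 0 were higher and 2 lower in VHL-r (22.2% against 19.8%). At an unadjusted p under 0.05, 2 were higher and 3 lower in R4VPL3-1, and 1 was higher and 3 lower in VHL-r. The share of all genes at that threshold was not counted. edgeR and DESeq2 each called 0 higher in either compound, 1 lower in R4VPL3-1 and 2 lower in VHL-r. RNF40 was at 7382 ± 270, 7441 ± 213 and 7194 ± 318 normalized counts in DMSO, VHL-r and R4VPL3-1, RNF20 at 4832 ± 113, 4587 ± 100 and 4595 ± 44.8, and RNF111, a ligase of SUMO-modified proteins as RNF4 is, at 1443 ± 20.7, 1515 ± 104 and 1580 ± 64.8. None of these was called. RNF169, given above, fell in both compounds, and RNF138, which promotes resection of DNA breaks, fell in VHL-r (1381 ± 53.9 to 1204 ± 76, log2 fold change -0.20, adjusted p = 0.0403). That call of RNF138 was lost without DMSO replicate 1, 2 or 3 or VHL-r replicate 2 or 3 (0.0512 to 0.187). In R4VPL3-1 RNF138 was at 1313 ± 115 (-0.08, limma adjusted p = 0.457), and the compounds were not called apart.

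Among the RNF members outside these role lists, 10 of 27 were higher and 2 lower in R4VPL3-1, or 37.0% and 7.41%, against 13.1% and 11.8% of all genes. In VHL-r 6 were higher and 3 lower, or 22.2% and 11.1%, against 10.3% and 9.51%. Beside RNF146, RNF165 and RNF227, the members that rose with R4VPL3-1 included RNF166 (643.5 ± 38.9 to 849.3 ± 103, log2 fold change 0.39, limma adjusted p = 0.00155). In VHL-r RNF166 was at 754.9 ± 64.2, without a call. RNF207, a cardiac ligase that acts on a potassium channel, fell in VHL-r (424 ± 27.4 to 316.1 ± 38.5, -0.43, adjusted p = 0.00251), with a value of -0.21 in R4VPL3-1 (0.123). RNF135, which activates RIG-I as TRIM25 does, rose in R4VPL3-1 (568.2 ± 10.8 to 663.5 ± 34, 0.22, adjusted p = 0.0324) and was at 571.4 ± 47.7 in VHL-r. The call of RNF135 did not hold with DMSO 1 (0.077), DMSO 2 (0.101), R4VPL3-1 2 (0.0578) or R4VPL3-1 3 (0.113) left out. None of RNF166, RNF207 and RNF135 was called between the compounds. RNF135, RNF166 and RNF207 here, and RNF144B and TRIM26 elsewhere, were named after their values were seen.

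The TIF1 TRIMs, chromatin readers with a bromodomain, had 2 of 4 higher in R4VPL3-1 and 1 of 4 higher in VHL-r, against 13.1% and 10.3% of all genes. TRIM24, a ligase of p53 and reader of histone H3, had 1658.12, 1578.1 and 1538.33 counts in DMSO, 2126.52, 2017.93 and 2116.04 in VHL-r, and 2118.66, 1939.06 and 2010.55 in R4VPL3-1. All treated libraries were above the controls (log2 fold changes 0.39 and 0.35, limma adjusted p = 1.21e-05 and 3.74e-05). TRIM66 rose in R4VPL3-1 (239.7 ± 31.4 to 316.5 ± 17.4, 0.41, adjusted p = 0.00472). In VHL-r TRIM66 was at 289.6 ± 7.29 (0.28, adjusted p = 0.0565), without a call, and the compounds were not called apart. TRIM28 had log2 values of 0.13 in VHL-r and 0.11 in R4VPL3-1 against DMSO (adjusted p = 0.0992 and 0.127), and TRIM33, a SMAD4 ligase, was at 2656 ± 71.9, 2621 ± 179 and 2547 ± 112, neither of them called. TRIM28 was called higher with DMSO replicate 1 left out (0.0326 in VHL-r and 0.0414 in R4VPL3-1), and in R4VPL3-1 with R4VPL3-1 replicate 3 left out (0.0185).

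Both NHL TRIMs were called in each compound, against 24.9% of all genes in R4VPL3-1 and 19.8% in VHL-r: TRIM32 fell, as given above, and TRIM3, its relative known from neurons, rose from 539.4 ± 31.7 to 651.5 ± 8.9 and 699.1 ± 80 (log2 fold changes 0.27 and 0.37, limma adjusted p = 0.0191 and 0.00164). The COS-box TRIMs did likewise, with TRIM36 higher and TRIM46 lower of 4, while TRIM9 was at 662.3 ± 115, 689.3 ± 73.9 and 684.3 ± 56.4 without a call. The VHL-r call of TRIM3 was lost without DMSO replicate 1 (0.0793), DMSO replicate 2 (0.0673) or VHL-r replicate 2 (0.0723).

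The SPRY TRIMs, with the COS-box TRIMs counted apart in their own list, were the longest TRIM list. Of 22, 3 were higher and 5 lower in R4VPL3-1 and 4 of each in VHL-r. That is 36.4% called in each, against 24.9% and 19.8% of all genes. TRIM26 rose from 1616 ± 45.4 to 2026 ± 37.8 and 2149 ± 129 (log2 fold changes 0.33 and 0.41, limma adjusted p = 1.14e-04 and 5.33e-06). TRIM58, an erythroid ligase of dynein, fell from 4907 ± 424 to 4288 ± 372 and 4144 ± 217 (-0.19 and -0.24, adjusted p = 0.037 and 0.00794), with overlapping DMSO and VHL-r libraries. TRIM27 fell in R4VPL3-1 from 2606 ± 21.2 to 2349 ± 36.6 (-0.15, adjusted p = 0.0175). In VHL-r TRIM27 was at 2402 ± 51.6 (-0.12, limma adjusted p = 0.0729), not called though its libraries did not overlap those of DMSO. The compounds were not called apart for TRIM27. TRIM11 was at 2272 ± 82.1, 2358 ± 46 and 2259 ± 161, without a call. The R4VPL3-1 call of TRIM58 was lost without DMSO replicate 1 (0.0588) and its VHL-r call without DMSO replicate 1 or 2 or VHL-r replicate 2 or 3 (0.0582 to 0.203), and that of TRIM27 was lost without DMSO replicate 2 (0.0685) or R4VPL3-1 replicate 1 (0.0531) or 2 (0.0639).

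Of the 9 interferon-inducible members, 2 were higher and 1 lower in R4VPL3-1 (33.3% called, against 24.9% of all genes) and 2 higher and 0 lower in VHL-r (22.2% against 19.8%). RNF114, a psoriasis susceptibility gene, rose from 3053 ± 51.2 to 3429 ± 101 and 3677 ± 109 (log2 fold changes 0.17 and 0.27, limma adjusted p = 0.0104 and 1.17e-04). RNF213, the moyamoya disease gene, rose in R4VPL3-1 (2552 ± 142 to 2874 ± 157, 0.17, adjusted p = 0.0461), with overlapping groups, and was at 2763 ± 242 in VHL-r. TRIM14, an adaptor of the antiviral protein MAVS, was at 1612 ± 96.9, 1503 ± 33.8 and 1479 ± 86.2. The call of RNF213 did not hold with DMSO 1 (0.155), DMSO 2 (0.149), R4VPL3-1 2 (0.14) or R4VPL3-1 3 (0.133) left out.

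The 9 TRIM members in no role list included TRIM8 and TRIM52. Of the 9, 2 were higher and 3 lower in R4VPL3-1 (55.6% called, against 24.9% of all genes). In VHL-r 1 was higher and 2 lower (33.3% against 19.8%).

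**Figure D5:**
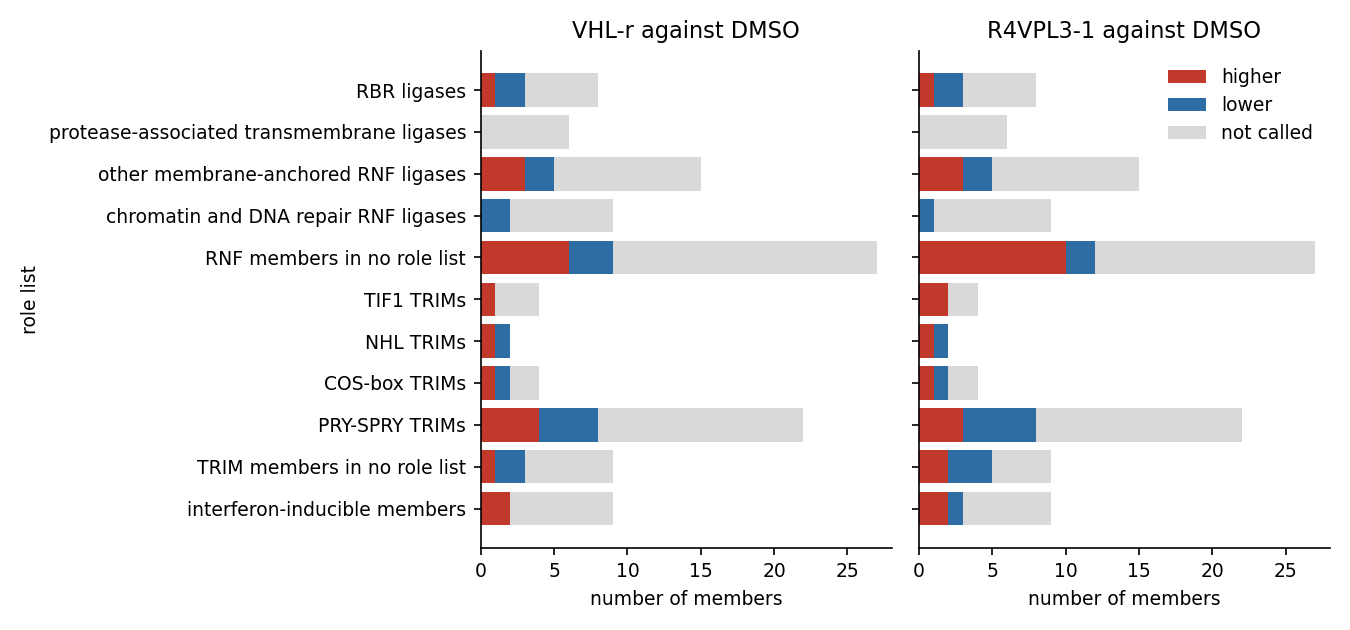
Number of members called higher, lower or not called by limma in each role list, for VHL-r (left) and R4VPL3-1 (right) against DMSO. The 6 protease-associated transmembrane ligases hold no call, and the SPRY TRIMs hold calls in both directions. Of all genes tested, 19.8% were called in VHL-r and 24.9% in R4VPL3-1.

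RING ligases that carry other symbols were counted for comparison. Of 46, 6 were higher and 8 lower in R4VPL3-1 (30.4% called, against 24.9% of all genes), 7 higher and 9 lower in VHL-r (34.8% against 19.8%), and 1 higher and 0 lower between the compounds (2.17% against 1.87%). That gene was SIAH2, a ligase of the oxygen-sensing prolyl hydroxylases, at 1034 ± 10.1, 1203 ± 40.4 and 1535 ± 170 normalized counts in DMSO, VHL-r and R4VPL3-1 (log2 difference between the compounds 0.35, limma adjusted p = 0.00489, and 0.0562 without R4VPL3-1 replicate 1). Of 27 partners of the members, 3 were higher and 5 lower in R4VPL3-1 (29.6% called, against 24.9% of all genes). In VHL-r 3 were higher and 3 lower (22.2% against 19.8%), and between the compounds 1 was higher and 0 lower (3.7% against 1.87%). That 1 was INSIG1, the sterol sensor with which RNF145 works, at 848.13, 880.55 and 920.77 counts in DMSO, 1296.92, 1437.03 and 1470.78 in VHL-r, and 3441.76, 2986.69 and 2756.75 in R4VPL3-1. INSIG1 thus stood in the same order of treatments as RNF145 but in the opposite direction, with log2 fold changes of 0.66 and 1.79 against DMSO (adjusted p = 5.79e-07 and 1.18e-13) and 1.12 between the compounds (1.13e-09). INSIG2, its paralog, was not called in any comparison.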

How the data were processed

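Poly(A) RNA of 9 A375R libraries, 3 per treatment, was sequenced as 100-base single reads. Per the study's methods, the authors aligned reads to GRCh38 (Ensembl 109) with STAR and counted them per gene with htseq-count in reverse-stranded mode. The deposited values, a signal in units of normalized counts, are these read counts divided by DESeq2 (1.36.0) size factors. Whole reads were recovered from every library (within 0.1 read) and used for depth and the count-based alternatives.

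Values were tested as log2(value + 1) with limma 3.58.1 (trend, R 4.3.3) over all 9 libraries and 15230 genes (those averaging 10 or more), in a single-factor model as in the study, with Benjamini-Hochberg adjustment over all genes and calls at 0.05. The procedure was tested on simulated data. Exact permutation of 3 against 3 libraries cannot go below p = 0.1 and was not used. Errors are SD over 3 libraries unless given as SE. No replicate pair agreed within sampling noise, and p-values measure the spread between these libraries. Fold changes on this scale understate those of low genes.

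Alternatives were pseudocounts of 0.1 and 5, no filter, a mean of at least 50, TMM and upper-quartile scaling, count tests on the recovered reads (edgeR 4.0.16, DESeq2 1.42.0), a robust fit, blocking on replicate number, the 6 libraries compared, adjusted p ≤ 0.01, and each library left out. Named were the 8 largest called, non-overlapping changes per direction and comparison, members called between the compounds, and up to 4 members per role list by mean level, besides those stated. Members and lists were chosen with earlier results of these data known. Exon overlaps are from GENCODE 44.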

Additional observations from a re-analysis of the deposited data

How the results depend on the processing

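Of the calls against DMSO, 25 of 40 in R4VPL3-1 and 22 of 35 in VHL-r were kept under every alternative that tested them at a threshold of 0.05, as was 1 of the 2 between the compounds (TRIM25). RNF122 and RNF225 were not in the fit of genes with a mean of at least 50. At an adjusted p of at most 0.01, 17 members were higher and 11 lower in R4VPL3-1, 11 higher and 10 lower in VHL-r, and 1 was lower between the compounds. The share of all genes at that threshold was not counted. With 1 library left out, the members lower in R4VPL3-1 than in VHL-r numbered 1 to 2, with 1 when VHL-r replicate 2 or R4VPL3-1 replicate 1 was absent. The log2 difference between the compounds was near 0 for TRIM36 and TRIM47 and changed sign with the setting: for TRIM47 it was 0.004 with TMM and 0.008 with upper-quartile scaling and ran from -0.097 to 0.047 with 1 library left out, and for TRIM36 it ran from -0.037 to 0.059. The cause was not tested. edgeR called 24 higher and 18 lower in R4VPL3-1 and 17 of each in VHL-r, and DESeq2 called 19 and 17, and 16 of each. Over all 15230 genes edgeR called 2127 higher and 1730 lower in R4VPL3-1, and 1593 and 1441 in VHL-r. DESeq2 called 1735 and 1622 of 17378 genes with an adjusted p in R4VPL3-1, and 1364 and 1277 of 16203 in VHL-r. Among named genes, DESeq2 did not call RNF135 or RNF213 in R4VPL3-1, TRIM60 or RNF227 in VHL-r, or RNF165 in either, and edgeR did not call RNF227 in VHL-r. Without the filter the calls of RNF165 in both compounds, RNF213 in R4VPL3-1, and RNF138, RNF227, TRIM58 and TRIM60 in VHL-r were lost, as were those of RNF138 with upper-quartile scaling and TRIM58 with the robust fit.

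Same-numbered libraries were at most weakly alike: their 9 correlations ran from -0.006 to 0.121, 2 of them over 0.1. Of 9 libraries, 4 were closest to their own number. Over all 15230 genes, blocking on replicate number raised the R4VPL3-1 calls from 1995 higher and 1797 lower to 2187 and 2054. The VHL-r calls rose from 1568 and 1448 to 1767 and 1684, and those between the compounds from 174 and 111 to 228 and 161. Whether the numbers mark a shared batch was not tested. With the replicate block, 23 members were higher and 19 lower in R4VPL3-1, 22 higher and 18 lower in VHL-r, and 0 higher and 2 lower between the compounds. Members under about 50 normalized counts had the widest intervals, and smaller differences were not detectable there at this depth.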
